A study of Mus musculus with 39 samples.

Results

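The 10 genes described here encode leptin receptor signalling and the proteins that restrain it: the ligand *Lep*, the receptor *Lepr*, the receptor trafficking genes *Leprot* and *Leprotl1*, the kinase *Jak2* with its adaptor *Sh2b1*, the transcription factor *Stat3*, and the brakes *Socs3*, *Ptpn1* and *Pias3*. They were chosen by name, and their symbols were matched to the Ensembl IDs of the count tables with GENCODE vM21. All 10 were found among the 55573 genes counted, and all 10 were among the 18442 genes that passed the expression filter. RNA of whole endoneuria was sequenced from the distal sciatic nerve, that is, of the tissue left after the perineurium is stripped, from C57BL/6 mice of both sexes, 2 to 4 months of age, with a unilateral sciatic nerve crush. Control mice (*Lepr*-ctrl) had the genotype *Lepr* fl/fl, and mutant mice (*Lepr*-cKO) had *Lepr* fl/fl::Dhh-Cre, so that both genotypes carried the floxed alleles and only the mutants carried the recombinase. Nerves were collected 2 or 4 weeks post crush (wpc), and the crushed (injured) nerve was compared with the contralateral (healthy) nerve. At 2 wpc there were 5 healthy and 5 injured *Lepr*-ctrl nerves and 6 healthy and 5 injured *Lepr*-cKO nerves, and at 4 wpc 5 healthy and 4 injured nerves of each genotype. The 39 libraries came from 22 mice, with both nerves of 17 of them, and single animals are given here by the name in their labels. Cre was driven by *Dhh* regulatory sequences, which are active in Schwann cells, so *Lepr* in endoneurial cells without Cre activity was not targeted. No mouse was sampled at both times, so time and cohort cannot be told apart.

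Leptin is a hormone of adipocytes. Its long receptor isoform has no enzymatic activity of its own and signals through the bound kinase JAK2, which phosphorylates STAT3, and STAT3 then enters the nucleus and induces target genes that include *Socs3*. SOCS3 binds the receptor complex and shuts the signal off, the phosphatase PTP1B (*Ptpn1*) removes phosphate from JAK2, PIAS3 hinders the binding of STAT3 to DNA, and the adaptor SH2B1 binds JAK2 and enhances its activity. The pathway is best known from hypothalamic control of food intake, and JAK2, STAT3, SOCS3 and PTP1B are shared with many cytokine receptors.

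Several libraries stood apart from the rest. The injured nerve of *Lepr*-cKO animal SLRKO2wpc126 at 2 wpc had a summed level of 10 skeletal muscle markers of 41339 CPM (counts scaled to a common library size), where the other 38 libraries had between 4.20 and 33.9 CPM, and the highest summed level of 10 adipocyte markers, 2337 CPM. At 4 wpc, the *Lepr*-cKO animal KO-169 had in its injured nerve 2.95% of its counts from mitochondrially encoded genes, where the other 3 injured nerves of its group had 12.6%, 9.84% and 20.2%, and it had the highest Schwann cell (63708 CPM), repair Schwann cell (1285 CPM) and fibroblast (13166 CPM) marker sums of that group. The highest mitochondrial shares were 33.0% in the injured nerve of *Lepr*-ctrl animal SLRKO2wpc144 and 29.7% in that of *Lepr*-cKO animal SLRKO2wpc135, both at 2 wpc. In injured nerves this mitochondrial share had medians of 11.2% (*Lepr*-ctrl) and 15.3% (*Lepr*-cKO) at 2 wpc and of 21.1% and 11.2% at 4 wpc, against medians of 2.05% to 2.42% in the 4 healthy groups. The healthy nerve of *Lepr*-cKO animal KO-177 at 4 wpc had a share of 4.25%, where the other 4 of its group had 2.28% to 2.46%, and the lowest Schwann cell sum of that group, 66579 CPM. The labelled tissue carried a defining marker of Schwann cells, the transcription factor gene *Sox10*, at between 216 and 1108 CPM in every library. *Dhh* itself was at 390 ± 21.2 CPM (SD, n = 5) in *Lepr*-ctrl and 556 ± 49.6 CPM (SD, n = 6) in *Lepr*-cKO healthy nerves at 2 wpc, and at 416 ± 24.2 CPM and 567.9 ± 36.8 CPM (SD, n = 5 each) at 4 wpc. In injured nerves, *Dhh* was at 167.8 ± 57.8 CPM and 294 ± 56.1 CPM (SD, n = 5 each) at 2 wpc and at 92.8 ± 22.03 CPM and 279.5 ± 92.6 CPM (SD, n = 4 each) at 4 wpc.

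The libraries held between 10905806 and 45016322 counts (median 27752451), and the injured nerves at 4 wpc were the shallowest, with medians of 14158795 (*Lepr*-ctrl) and 17552170.5 (*Lepr*-cKO). At this depth, 9 of the 10 genes were well covered: outside *Lep*, the lowest count in any library was 159, for *Lepr*, and the highest was 8537, for *Stat3*. Levels between genes were compared per kilobase of exon sequence (CPM per kb, with all annotated exons of a gene merged). *Leprot* was highest in all 8 groups, at 26.1 to 37.8 CPM per kb, *Lepr* was next to lowest, at 0.940 to 1.45 CPM per kb in healthy and 4.33 to 9.88 CPM per kb in injured nerves, and *Lep* was lowest, at no more than 0.912 CPM per kb. The kinase, the transcription factor, the adaptor and the brakes lay between 9.57 and 25.6 CPM per kb in all groups. *Lepr* and *Lep* kept these places with the longest transcript as length, whereas *Leprot* then came after *Stat3* and *Ptpn1* in injured *Lepr*-ctrl nerves at 4 wpc.

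**Figure D1:**
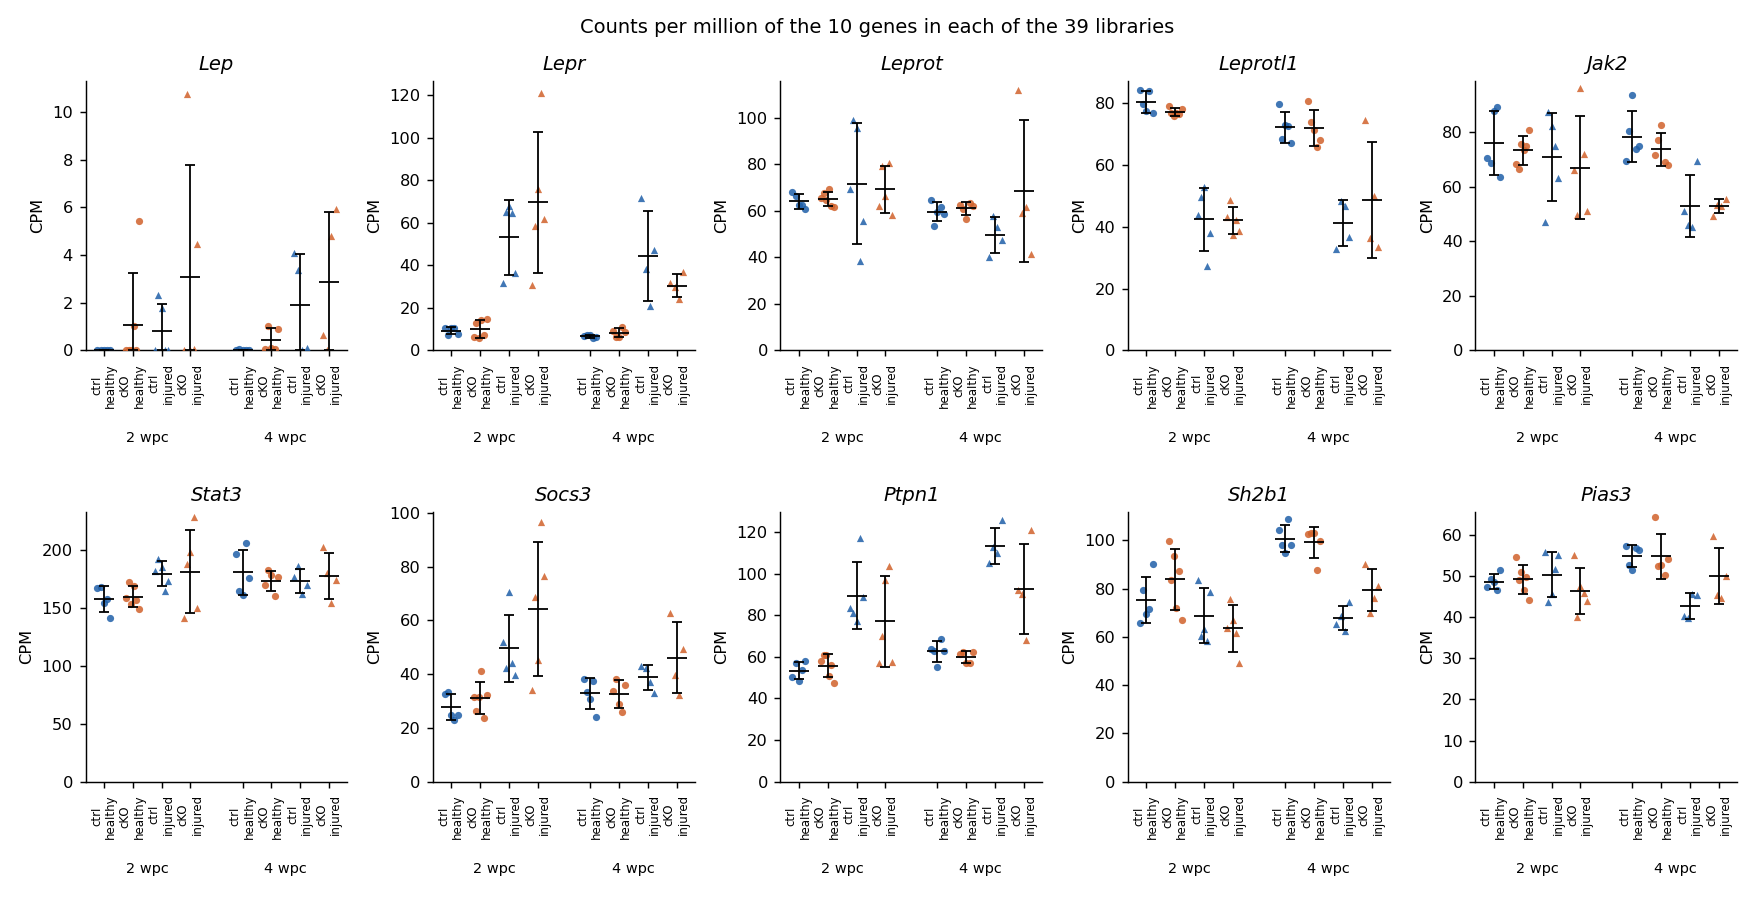
Level (CPM, linear axes from 0) of the 10 genes in each library, by genotype (blue, *Lepr*-ctrl; orange, *Lepr*-cKO), nerve (circles, healthy; triangles, injured) and time. Horizontal marks with bars are means ± SD over 4 to 6 libraries, with lower bars stopped at 0. *Lepr* and *Ptpn1* are higher and *Leprotl1* is lower in injured nerves, and *Lep* is near 0 in most libraries.

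The first question was which of these genes changed after nerve crush. In injured against healthy nerves at 2 wpc, 4 of the 10 genes were higher and 1 was lower in *Lepr*-ctrl mice, and 3 were higher and 2 lower in *Lepr*-cKO mice (edgeR quasi-likelihood test, Benjamini-Hochberg adjusted p under 0.05). At 4 wpc, 3 were higher and 4 lower in *Lepr*-ctrl mice, and the mutants had 2 higher and 3 lower. The receptor *Lepr* and the phosphatase gene *Ptpn1* rose in all 4 comparisons, *Leprotl1* fell in all 4, and *Socs3* rose at 2 wpc in both genotypes. *Stat3*, the most highly expressed of the 10 genes in CPM, did not pass the test in any comparison. Among all tested genes, the share called higher was 33.7% (*Lepr*-ctrl) and 35.9% (*Lepr*-cKO) at 2 wpc and 32.4% and 29.6% at 4 wpc, and the share called lower was 30.2%, 29.2%, 31.2% and 25.8% in the same order. In either direction, 5, 5, 7 and 5 of the 10 genes were called in these comparisons, where 64%, 65.1%, 63.6% and 55.4% of all tested genes were, and their median log2 fold change and that of all genes were 0.17 against 0.08, 0.14 against 0.10, -0.16 against 0.02 and 0.10 against 0.06. With an absolute log2 fold change above 1 as well, 2, 2, 2 and 1 of the 10 genes were called, where 34.1%, 34.3%, 35.9% and 27.6% of all tested genes were. The CPM values of injured and healthy nerves did not overlap for 4, 2, 5 and 3 of the 10 genes, in the same order, and for 47.9%, 41.4%, 54.8% and 41.9% of all tested genes. In bulk tissue, fewer cells of a type and less RNA per cell cannot be told apart.

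**Figure D2:**
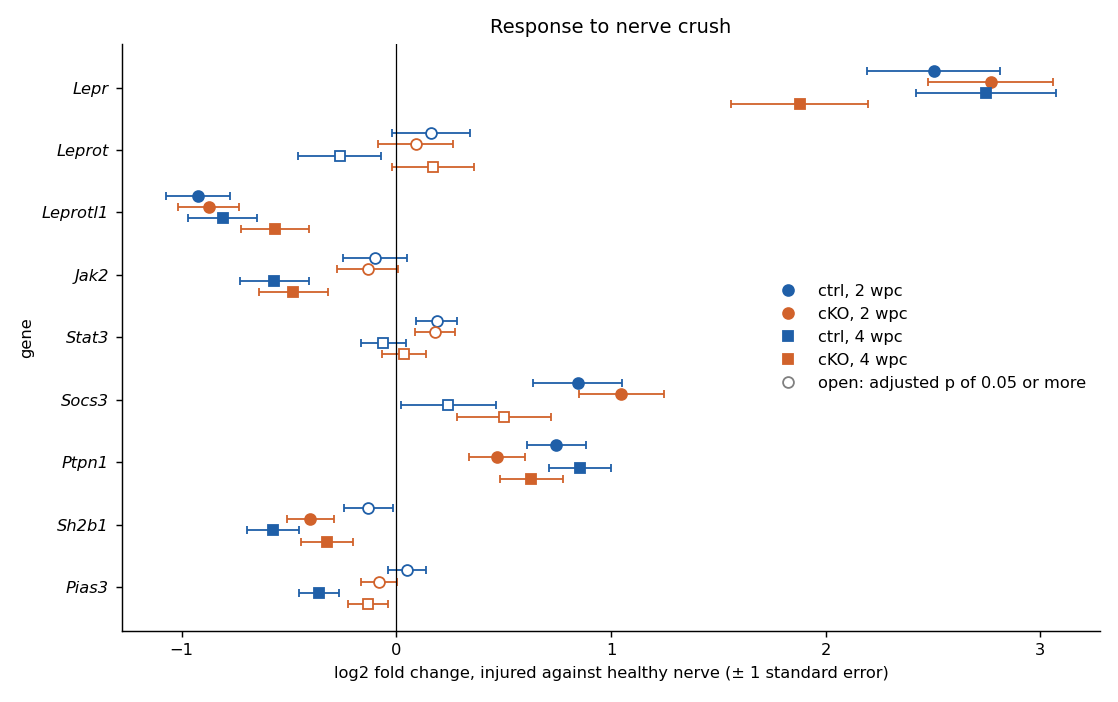
Log2 fold change of injured against healthy nerves from the edgeR fit (horizontal axis, ± 1 standard error) for 9 genes in 4 comparisons. Filled symbols have an adjusted p under 0.05. *Lepr* stands at 1.88 to 2.77, *Ptpn1* at 0.47 to 0.86 and *Leprotl1* at -0.92 to -0.56. *Lep* is left out because its healthy *Lepr*-ctrl libraries held at most 1 count.

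*Lep* (ENSMUSG00000059201, chromosome 6 from 29060220 to 29073877 on the plus strand), the ligand, was at or near 0 in most endoneurial libraries. It had 0 counts in 16 libraries, 1 to 3 counts in 10 and at least 18 counts in the other 13. In *Lepr*-ctrl mice at 2 wpc, all 5 healthy nerves had 0 counts, which allows up to 0.0181 CPM (3 counts over the group, counting error only), and the 5 injured nerves had 0, 0, 0, 54 and 72 counts. Injured nerves of this group were therefore at least 51.0-fold higher, measured against that floor, but 3 of the 5 held no count at all, and without the injured nerve of animal SLRKO2wpc130 the limit was 28.3-fold. In *Lepr*-ctrl mice at 4 wpc, the healthy nerves had 0, 0, 0, 1 and 1 counts and the injured nerves 0, 1, 47 and 53 counts, a ratio of summed levels of 132 (95% exact interval of 35.6 to 1100.0, counting error only). This ratio rests on 2 healthy counts: it was 220.0 and 208 without the healthy nerve of animal WT-170 or WT-178 and 87.3 without the injured nerve of animal WT-171. *Lepr*-cKO mice also had *Lep* in some healthy nerves. At 2 wpc the 6 healthy nerves had 0, 0, 1, 1, 37 and 210 counts and the 5 injured nerves 0, 1, 1, 139 and 381 counts, with a ratio of 2.93 (95% exact interval of 2.52 to 3.42, counting error only). Single libraries decided its size: it was 15.3 without the healthy nerve of animal SLRKO2wpc138, which held the 210 counts, and 1.03 without the injured nerve of animal SLRKO2wpc126, which held the 381 counts. At 4 wpc the 5 healthy nerves had 1, 2, 3, 28 and 37 counts and the 4 injured nerves 0, 18, 91 and 95 counts, with a ratio of 5.04 (95% exact interval of 3.83 to 6.69, counting error only).

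These intervals do not cover the spread between mice, which was wide. Between nerves, edgeR called *Lep* in *Lepr*-ctrl mice at 2 wpc (adjusted p = 0.0239) and at 4 wpc (adjusted p = 0.0165) and not in *Lepr*-cKO mice (edgeR adjusted p = 0.327 at 2 wpc and 0.159 at 4 wpc). The call at 2 wpc was lost without the injured nerve of animal SLRKO2wpc130 (edgeR adjusted p = 0.0629, with a range of 0.00356 to 0.0629 over 16 alternatives), and without the healthy nerve of animal SLRKO2wpc138 *Lep* was called in *Lepr*-cKO mice at 2 wpc (edgeR adjusted p = 0.0278). *Lep* moved with adipocyte markers: over the 39 libraries, its deviations from the group means had a Pearson r of 0.864 with those of the summed adipocyte markers, on log2 scales. The 10 adipocyte markers summed to 187 ± 43.4 CPM (SD, n = 5) in healthy and 237 ± 155 CPM (SD, n = 5) in injured *Lepr*-ctrl nerves at 2 wpc and to 231 ± 87.4 CPM (SD, n = 5) and 409 ± 216 CPM (SD, n = 4) at 4 wpc. In *Lepr*-cKO mice they summed to 324 ± 135.8 CPM (SD, n = 6) and 615 ± 970 CPM (SD, n = 5) at 2 wpc and to 235 ± 74.4 CPM (SD, n = 5) and 369 ± 216 CPM (SD, n = 4) at 4 wpc. Of the 9 markers that passed the expression filter, 7 were higher and 2 lower in injured nerves of *Lepr*-ctrl mice at 2 wpc and 7 and 0 at 4 wpc, and in *Lepr*-cKO mice 2 were higher and 1 lower at either time. As background, 29.6% to 35.9% of all tested genes were called higher and 25.8% to 31.2% lower in these comparisons. All 10 markers had counts in each group except *Adipoq*, the adipocyte hormone adiponectin, which was at 0 in all 5 healthy *Lepr*-ctrl nerves at 4 wpc. *Pnpla2*, a lipase of many cell types, was the most abundant of them in the 4 healthy groups, at 111 to 139.7 CPM, and *Fabp4* or *Cfd* in the injured groups. *Adipoq* was at 6.62 ± 10.2 CPM (SD, n = 6) in healthy *Lepr*-cKO and 0.0185 ± 0.0276 CPM (SD, n = 5) in healthy *Lepr*-ctrl nerves at 2 wpc. Injured nerves then had 23.9 ± 47.9 CPM and 6.58 ± 8.90 CPM of it (SD, n = 5 each), respectively. At 4 wpc, injured *Lepr*-ctrl nerves had 11.1 ± 13.3 CPM of *Adipoq* (SD, n = 4). The lowest injured *Lepr*-ctrl nerve had 0 CPM of it at either time. Mean *Cfd* went from 0.0948 ± 0.0238 CPM to 52.9 ± 77.6 CPM (SD, n = 5 each) with injury in *Lepr*-ctrl mice at 2 wpc. The part of adipocyte RNA in the *Lep* values was not tested.

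**Figure D3:**
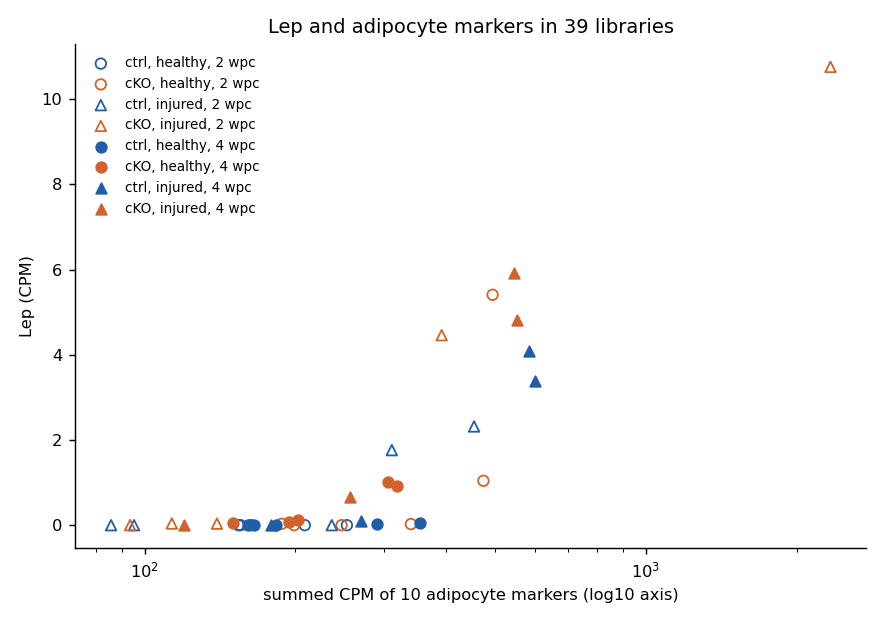
*Lep* (vertical axis, CPM) against the summed level of 10 adipocyte markers (horizontal axis, CPM, log10 scale), 1 point per library, by genotype (colour), nerve (shape) and time (open, 2 wpc; filled, 4 wpc). Libraries with the highest *Lep* lie to the right, and the rightmost point is the injured *Lepr*-cKO nerve of animal SLRKO2wpc126, at 10.8 CPM of *Lep*.

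*Lepr* (ENSMUSG00000057722, chromosome 4 from 101717404 to 101815352 on the plus strand), the receptor, was the targeted gene. The deletion removes exon 1 in cells with Cre activity, and the counts cover all exons of the gene, so they do not check the deletion. In healthy nerves of *Lepr*-ctrl mice, *Lepr* was at 7.37, 7.69, 10.5, 10.6 and 10.6 CPM at 2 wpc and at 5.85, 6.18, 6.63, 7.11 and 7.37 CPM at 4 wpc. In healthy nerves of *Lepr*-cKO mice, it was between 5.79 and 14.7 with a median of 9.97 CPM at 2 wpc and at 6.11, 6.42, 8.48, 9.24 and 11.3 CPM at 4 wpc. Every injured nerve lay above every healthy nerve of its group, and the injured nerve had the higher level in 17 of 17 mice, by 1.70 to 3.70 on the log2 scale (median 2.23). Injured *Lepr*-ctrl nerves had 31.7, 36.3, 64.8, 65.3 and 68.2 CPM at 2 wpc and 20.8, 38.5, 47.3 and 71.5 CPM at 4 wpc. Injured *Lepr*-cKO nerves had 31.0, 58.3, 62.0, 76.0 and 121 CPM at 2 wpc and 24.0, 29.7, 31.7 and 36.7 CPM at 4 wpc. The increase with injury corresponded to 5.67-fold and 6.81-fold in *Lepr*-ctrl and *Lepr*-cKO mice at 2 wpc and to 6.71-fold and 3.68-fold at 4 wpc, and the last of these is a log2 fold change of 1.88 ± 0.32 (SE, adjusted p of 7.17e-06 by edgeR). Among the 4 injured groups, the highest mean was that of *Lepr*-cKO mice at 2 wpc and the lowest that of *Lepr*-cKO mice at 4 wpc, and the neighbours in that order overlapped. Each injury call held in all alternatives. Of the marker lists, *Lepr* deviated most with the endothelial cell and pericyte sum within groups (Pearson r of deviations 0.661 over 39 libraries) and against the Schwann cell sum (-0.577), and the part of these cells in the increase was not tested.

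By the likeness of their levels over the 39 libraries (Pearson r of log2 CPM, among 12785 genes with a mean log2 CPM above 1), the genes closest to *Lepr* were *Aplnr* (r = 0.973), *Fam84b* (0.970), *Ttc39b* (0.959), *Tmem252* (0.959) and *Tmem173* (0.958). All libraries, injured and healthy, enter these values. For deviations from the group means, the closest were *Klhl4* (r = 0.828), *Tmod3* (0.814), *Fam84b* (0.791), *Ptprk* (0.790) and *Calcrl* (0.783), so that *Fam84b* was in both lists. By Spearman's rho, 3 genes of the first list and 2 of the second stayed among the closest 5.

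*Leprot* (ENSMUSG00000035212, chromosome 4 from 101647718 to 101659364 on the plus strand) and *Leprotl1* (ENSMUSG00000031513, chromosome 8 from 34135572 to 34147033 on the minus strand) encode related membrane proteins that lower the amount of leptin receptor at the cell surface. They behaved differently after crush: *Leprotl1* fell in every comparison and *Leprot* was called in none. *Leprotl1* was at 76.7, 77.2, 79.6, 83.9 and 84.2 CPM in healthy and at 27.4, 37.9, 43.7, 49.6 and 52.9 CPM in injured *Lepr*-ctrl nerves at 2 wpc. At 2 wpc, the healthy nerves of *Lepr*-cKO mice were between 75.6 and 78.8 with a median of 76.7 CPM and injured nerves at 37.3, 38.7, 42.2, 43.1 and 48.7 CPM. Healthy and injured values did not overlap in either genotype at this time, and the log2 fold changes were -0.92 ± 0.15 (SE, adjusted p of 2.05e-06 by edgeR) and -0.87 ± 0.14 (SE, adjusted p of 2.65e-06 by edgeR). At 4 wpc, *Lepr*-ctrl nerves had 66.9, 68.3, 72.5, 73.0 and 79.6 CPM when healthy and 32.9, 36.7, 46.5 and 48.2 CPM when injured. The healthy nerves of *Lepr*-cKO mice then had 65.7, 68.1, 71.2, 73.8 and 80.6 CPM and injured nerves 33.3, 36.5, 49.8 and 74.6 CPM. The groups overlapped only in this last comparison, through the injured nerve of animal KO-169 (74.6 CPM). The log2 fold changes were -0.81 ± 0.16 (SE, adjusted p of 4.88e-05 by edgeR) and -0.56 ± 0.16 (SE, adjusted p of 0.00306 by edgeR), and without the injured nerve of animal KO-169 the latter was -0.85 (edgeR adjusted p = 7.58e-06). The injured nerve was the lower of both in 17 of 17 mice, by 0.11 to 1.05 on the log2 scale.

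*Leprot* was between 53.4 and 69.4 CPM in all 21 healthy nerves. In injured *Lepr*-ctrl nerves it had 38.3, 55.7, 69.4, 95.8 and 99.1 CPM at 2 wpc and 40.0, 47.7, 53.1 and 57.6 CPM at 4 wpc, and in injured *Lepr*-cKO nerves 58.3, 62.3, 66.3, 79.3 and 80.7 CPM and 41.3, 59.3, 61.8 and 112 CPM. Injured values thus spread to both sides of the healthy range, and the injured nerve was higher in 8 and lower in 9 of 17 mice. The log2 fold changes were 0.16 ± 0.18 (SE, adjusted p of 0.443 by edgeR) and 0.09 ± 0.17 (SE, adjusted p of 0.662 by edgeR) at 2 wpc. At 4 wpc they were -0.26 ± 0.19 (SE, adjusted p of 0.237 by edgeR) and 0.17 ± 0.19 (SE, adjusted p of 0.464 by edgeR), and the latter became -0.17 without the injured nerve of animal KO-169, which had the highest *Leprot* of all libraries, 112 CPM. Within groups, both genes deviated together (Pearson r 0.899 over 39 libraries), with the fibroblast (0.679 for *Leprot* and 0.825 for *Leprotl1*), repair Schwann cell (0.698 and 0.630), perineurial cell (0.732 and 0.587) and Schwann cell (0.402 and 0.564) marker sums and against the mitochondrially encoded share (-0.587 and -0.676). The Schwann cell sum was lower in injured nerves, at 26829 ± 12386 CPM against 78947 ± 7427 CPM (SD, n = 5 each) in *Lepr*-ctrl mice at 2 wpc and at 22579 ± 3196 CPM (SD, n = 4) against 81518 ± 5207 CPM (SD, n = 5) at 4 wpc. In *Lepr*-cKO mice it was 27690 ± 9966 CPM (SD, n = 5) against 82347 ± 7110 CPM (SD, n = 6) and 44290 ± 16901 CPM (SD, n = 4) against 81460 ± 9412 CPM (SD, n = 5). The part of these in the levels was not tested. Of the other genes that sort or shed the receptor (*Rnf41*, *Usp8*, *Adam10*, *Adam17*), 1 was higher and 3 lower at 2 wpc in both genotypes, and 0 were higher and 3 (*Lepr*-ctrl) or 2 (*Lepr*-cKO) lower at 4 wpc. Among all tested genes, 29.6% to 35.9% were called higher and 25.8% to 31.2% lower in these comparisons. *Rnf41*, a ubiquitin ligase that controls sorting of cytokine receptors, fell in all 4, with log2 fold changes of -0.55, -0.69, -0.67 and -0.41 (edgeR adjusted p of at most 0.000107). The sheddase gene *Adam10* fell most, from 1115 ± 139 CPM in healthy to 312 ± 97.8 CPM (SD, n = 5 each) in injured *Lepr*-ctrl nerves at 2 wpc, a log2 fold change of -1.84 ± 0.18 (SE, adjusted p of 7.08e-11 by edgeR). The median log2 fold change of the 4 genes was -0.45, -0.50, -0.57 and -0.23, beside the medians of all genes given above.

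*Jak2* (ENSMUSG00000024789, chromosome 19 from 29251828 to 29313080 on the plus strand), the receptor-bound kinase, was lower in injured nerves at 4 wpc and not called at 2 wpc. At 4 wpc it had 69.3, 73.8, 74.9, 80.6 and 93.7 CPM in healthy and 45.4, 45.9, 51.0 and 69.6 CPM in injured *Lepr*-ctrl nerves. In *Lepr*-cKO mice at that time it had 68.1, 69.2, 71.7, 77.3 and 82.7 CPM in healthy and 49.4, 53.1, 53.5 and 55.7 CPM in injured nerves. The *Lepr*-cKO groups did not overlap, whereas in *Lepr*-ctrl mice the injured nerve of animal WT-178 (69.6 CPM) lay within the healthy range. The log2 fold changes were -0.57 ± 0.16 (SE, adjusted p of 0.00249 by edgeR) and -0.48 ± 0.16 (SE, adjusted p of 0.0109 by edgeR), and the injured nerve was lower in all 8 mice with both nerves at 4 wpc. At 2 wpc, injured nerves had 47.0, 63.2, 74.9, 82.5 and 87.4 CPM in *Lepr*-ctrl and 49.8, 51.0, 66.0, 71.9 and 96.1 CPM in *Lepr*-cKO mice, on both sides of the healthy means of 76.0 ± 11.7 CPM (SD, n = 5) and 73.4 ± 5.27 CPM (SD, n = 6). Among mice with both nerves at 2 wpc, the injured nerve was lower in 4 of 4 *Lepr*-ctrl and 4 of 5 *Lepr*-cKO mice. Of the other 3 Janus kinase genes, 2 were higher and 0 lower in each comparison. Over all tested genes, 29.6% to 35.9% were called higher and 25.8% to 31.2% lower in these comparisons. *Jak3*, a kinase of lymphoid and myeloid cells, rose from 9.57 ± 0.922 CPM to 68.6 ± 33.8 CPM (SD, n = 5 each) in *Lepr*-ctrl mice at 2 wpc, a log2 fold change of 2.84 ± 0.38 (SE, adjusted p of 7.19e-08 by edgeR), and by a log2 fold change of 2.43 to 3.15 in the other comparisons. *Tyk2* rose at 2 wpc in both genotypes (0.65 and 0.40) and at 4 wpc in the mutants (0.31), and *Jak1* in *Lepr*-ctrl mice at 4 wpc (0.40). Macrophage markers were higher in the same nerves as *Jak3*: the 10 markers summed to 167 ± 31.7 CPM in healthy and 817 ± 253 CPM in injured *Lepr*-ctrl nerves at 2 wpc (SD, n = 5 each), and their part in it was not tested.

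*Stat3* (ENSMUSG00000004040, chromosome 11 from 100885098 to 100939540 on the minus strand), the transcription factor that carries the signal to the nucleus, was not called in any injury comparison. Its levels were 141, 154, 158, 167 and 167.98 CPM in healthy and 164, 173.2, 182, 185 and 193 CPM in injured *Lepr*-ctrl nerves at 2 wpc, and 161, 165, 176.04, 196 and 206 CPM and 162, 169.6, 176.5 and 186 CPM at 4 wpc. *Lepr*-cKO nerves at 2 wpc were between 149 and 172 with a median of 158 CPM when healthy and at 141, 149.9, 188, 198 and 228 CPM when injured, and at 4 wpc they had 159.8, 169.4, 176.2, 178.6 and 182 CPM and 154, 174, 180.3 and 202 CPM. Healthy and injured values overlapped in each comparison. The log2 fold changes were 0.19 (95% interval -0.00 to 0.38, adjusted p of 0.0883 by edgeR) and 0.18 (95% interval 0.00 to 0.36, adjusted p of 0.0827 by edgeR) at 2 wpc and -0.06 (95% interval -0.26 to 0.14, adjusted p of 0.628 by edgeR) and 0.04 (95% interval -0.16 to 0.24, adjusted p of 0.782 by edgeR) at 4 wpc. The highest bound of these intervals was a log2 fold change of 0.38, and the value at 2 wpc in *Lepr*-cKO mice was called under 5 of 19 alternatives (adjusted p between 0.00727 and 0.410 over edgeR and DESeq2). Of its exon bases, 0.756% are shared with *Stat5a* on the opposite strand, and the kit did not mark strand. Of the other 6 STAT genes, 2 were higher and 1 lower at 2 wpc in both genotypes, 2 were higher and 2 lower in *Lepr*-ctrl mice at 4 wpc, and 0 were higher and 1 lower in *Lepr*-cKO mice at 4 wpc. The shares of all tested genes called in these comparisons were 29.6% to 35.9% higher and 25.8% to 31.2% lower. *Stat6*, the transcription factor of interleukin-4 signalling, fell in all 4 (log2 fold changes of -0.52, -0.63, -0.36 and -0.41, edgeR adjusted p of at most 0.000141), and *Stat5b* rose in 3 (0.30, 0.51 and 0.38). None of the 6 passed a log2 fold change of 1 in either direction.

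*Socs3* (ENSMUSG00000053113, chromosome 11 from 117966079 to 117970047 on the minus strand), the feedback inhibitor that STAT3 induces, rose with injury at 2 wpc in both genotypes. The palindromic STAT element TTCNNNGAA was in 1 of the 12 RefSeq promoter windows of 9 of the 10 genes (GRCm38.p6, 250 bases before to 50 after the start), that of *Socs3*. It reads the same on both strands and occurs in 8.33% of all 32544 promoter windows, so that 1 match in 12 windows is near that share. The AP-1 element TGANTCA, also a palindrome, was in 0 of the 12 windows and in 7.79% of all. The stretch below shows the *Socs3* promoter from 250 to 86 bases before the RefSeq start, the part that no annotated exon overlaps, at chr11:117969452-117969616 on the minus strand, read 5′ to 3′ along the gene, with the element, which begins 154 bases before the start, in capitals.
Socs3: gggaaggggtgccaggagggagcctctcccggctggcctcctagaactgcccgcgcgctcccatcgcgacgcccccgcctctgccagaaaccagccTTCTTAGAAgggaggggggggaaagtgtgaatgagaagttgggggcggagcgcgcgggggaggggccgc
The printed stretch lies within the annotated gene, which begins further upstream, at 117970047 on the minus strand. A match of these letters is a description of the sequence and no measure of binding. Of 7 other SOCS family genes, 3 had a window, and that of *Cish* held the element, and of the 12 STAT3 target genes with a window only *Gfap* did.

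In healthy nerves at 2 wpc, *Socs3* was at 23.0, 24.8, 24.8, 32.4 and 33.3 CPM in *Lepr*-ctrl and between 23.5 and 41.1 with a median of 31.6 CPM in *Lepr*-cKO mice. In injured nerves it was at 39.5, 42.3, 44.1, 52.0 and 70.5 CPM and at 34.3, 45.1, 68.6, 76.5 and 96.6 CPM, respectively. In *Lepr*-ctrl mice the groups did not overlap, and in *Lepr*-cKO mice the injured nerve of animal SLRKO2wpc125 (34.3 CPM) lay within the healthy range. The log2 fold changes were 0.85 ± 0.21 (SE, adjusted p of 0.000625 by edgeR) and 1.05 ± 0.20 (SE, adjusted p of 2.06e-05 by edgeR), which correspond to 1.80-fold and 2.07-fold, and both calls held in all alternatives. At 4 wpc, healthy nerves had 24.0, 30.6, 33.5, 37.6 and 38.2 CPM in *Lepr*-ctrl and 26.0, 28.7, 33.8, 36.1 and 38.3 CPM in *Lepr*-cKO mice. Injured nerves then had 33.1, 37.0, 42.2 and 43.0 CPM and 32.4, 39.7, 49.3 and 62.9 CPM. These groups overlapped, with log2 fold changes of 0.24 ± 0.22 (SE, adjusted p of 0.34 by edgeR) and 0.50 ± 0.22 (SE, adjusted p of 0.0503 by edgeR). The latter sat at the threshold: with the animal as a block it was 0.51 (edgeR adjusted p = 0.0447), and the adjusted p ranged from 0.0227 to 0.258 over 17 alternatives, 7 of which called it. The injured nerve had more *Socs3* in 16 of 17 mice, by up to 1.61 on the log2 scale (median 0.64). Within groups, *Socs3* deviated with the repair Schwann cell (Pearson r 0.561 over 39 libraries), endothelial cell and pericyte (0.476) and perineurial cell (0.452) marker sums, and the part of these in its levels was not tested. The difference between the responses at 4 and at 2 wpc was -0.60 ± 0.30 (SE, adjusted p of 0.213 by edgeR) in *Lepr*-ctrl and -0.55 ± 0.29 (SE, adjusted p of 0.395 by edgeR) in *Lepr*-cKO mice and was not called.

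Among the other 7 SOCS family genes, 4 were higher at 2 wpc in both genotypes, and 5 (*Lepr*-ctrl) and 3 (*Lepr*-cKO) at 4 wpc, and 0 were lower. The share of all tested genes called higher was 33.7% (*Lepr*-ctrl) and 35.9% (*Lepr*-cKO) at 2 wpc and 32.4% and 29.6% at 4 wpc. *Socs2*, an inhibitor best known from growth hormone signalling, rose from 4.48 ± 0.696 CPM to 55.0 ± 42.9 CPM (SD, n = 5 each) in *Lepr*-ctrl mice at 2 wpc, a log2 fold change of 3.62 ± 0.36 (SE, adjusted p of 1.33e-10 by edgeR), and by 3.24, 3.11 and 2.51 in the other 3 comparisons. *Cish*, a target of STAT5, rose by a log2 fold change of 2.35 ± 0.36 (SE, adjusted p of 7.4e-07 by edgeR) in *Lepr*-cKO mice at 2 wpc, and by 3.10 and 2.06 at 4 wpc. *Socs1* and *Cish*, like *Socs2*, were called higher in all 4 comparisons. *Socs1* rose by 2.89 ± 0.27 (SE, adjusted p of 2.52e-11 by edgeR) in *Lepr*-ctrl mice at 2 wpc, from 0.945 ± 0.451 CPM to 6.91 ± 1.47 CPM (SD, n = 5 each). The genes whose levels were most like those of *Socs3* over the 39 libraries were *Trib1* (r = 0.861), *Jun* (0.855), *Smad7* (0.843), *Tnfrsf1a* (0.825) and *Midn* (0.824). Within groups they were *Zfp36l2* (r = 0.755), *Trib1* (0.733), *Smad7* (0.71), *Pgm3* (0.695) and *Gem* (0.678), so that *Trib1* and *Smad7* were in both lists. By Spearman's rho, 3 genes of each list stayed among the closest 5. *Lepr* and *Socs3* had an r of 0.739 over all libraries and of 0.364 within groups.

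*Ptpn1* (ENSMUSG00000027540, chromosome 2 from 167932057 to 167979385 on the plus strand), which encodes the phosphatase PTP1B, rose in all 4 injury comparisons. In *Lepr*-ctrl mice at 2 wpc, it was at 48.3, 50.2, 53.6, 57.2 and 58.0 CPM in healthy and at 77.1, 81.2, 83.7, 88.7 and 117 CPM in injured nerves. At 4 wpc it was at 55.0, 62.7, 63.0, 63.7 and 68.7 CPM in healthy and at 105, 109.9, 113 and 125.8 CPM in injured nerves. No value overlapped at either time, and the log2 fold changes were 0.74 ± 0.14 (SE, adjusted p of 1.72e-05 by edgeR) and 0.86 ± 0.14 (SE, adjusted p of 4.51e-06 by edgeR). *Lepr*-cKO nerves at 2 wpc were between 47.6 and 61.2 with a median of 57.0 CPM when healthy and at 57.3, 57.8, 69.8, 97.2 and 104 CPM when injured, and at 4 wpc they had 56.9, 57.0, 61.3, 62.3 and 62.4 CPM and 68.1, 90.2, 92.0 and 121 CPM. The groups overlapped at 2 wpc, where the injured nerves of animals SLRKO2wpc125 and SLRKO2wpc138 were within the healthy range, and not at 4 wpc. Here the log2 fold changes were 0.47 ± 0.13 (SE, adjusted p of 0.00218 by edgeR) and 0.63 ± 0.14 (SE, adjusted p of 0.000418 by edgeR), and the injured nerve was higher in 16 of 17 mice. Each of the 4 calls held in all alternatives. Within groups, *Ptpn1* deviated with the mitochondrially encoded share (Pearson r 0.630 over 39 libraries) and against the Schwann cell (-0.574) and fibroblast (-0.548) marker sums, and the part of these in the increase was not tested.

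**Figure D4:**
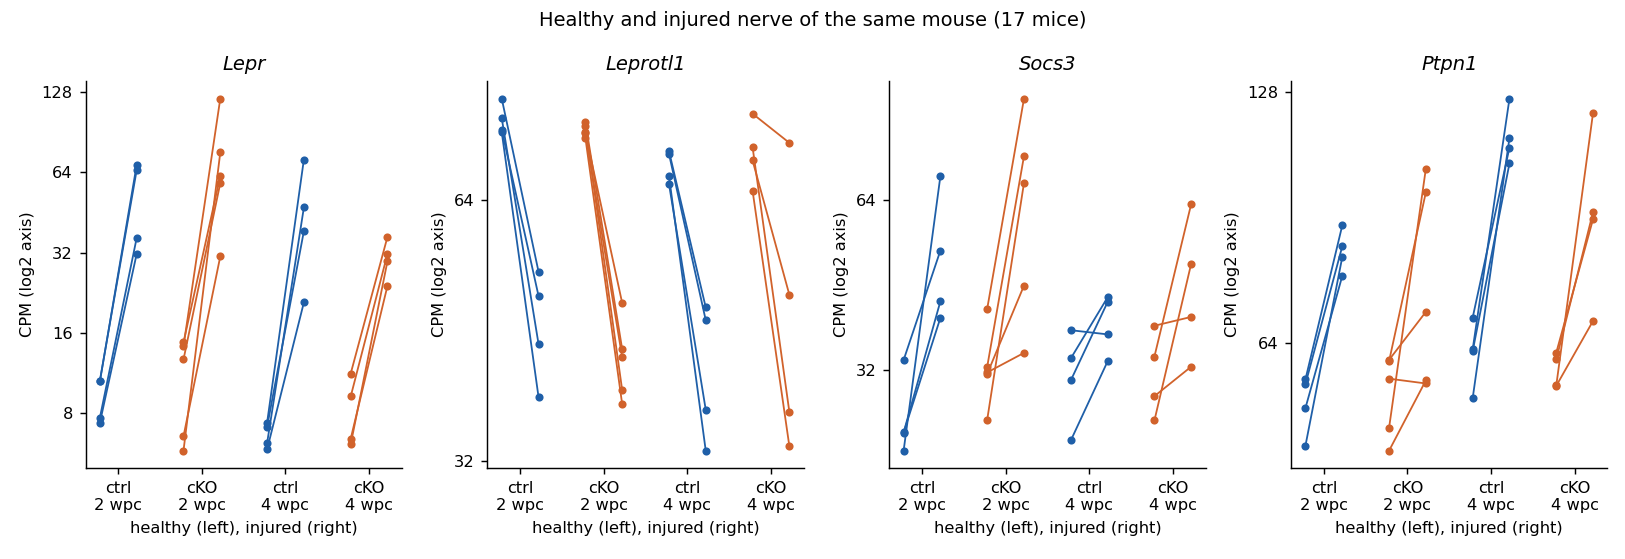
Level (CPM, log2 axes) of 4 genes in the healthy and the injured nerve of the same mouse, joined by a line, for 17 mice by genotype and time. *Lepr* rises in 17 of 17 mice, *Leprotl1* falls in 17 of 17, and *Socs3* and *Ptpn1* rise in 16 of 17 each.

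Of the other 5 phosphatase genes, 2 were higher and 2 lower in each comparison. In the same comparisons, 29.6% to 35.9% of all tested genes were called higher and 25.8% to 31.2% lower. *Ptpn6*, which encodes the hematopoietic phosphatase SHP-1, rose from 4.62 ± 0.608 CPM to 33.7 ± 7.40 CPM (SD, n = 5 each) in *Lepr*-ctrl mice at 2 wpc, a log2 fold change of 2.86 ± 0.21 (SE, adjusted p of 9.33e-14 by edgeR), and by 2.5, 3.32 and 2.89 in the other comparisons. *Ptpn2*, the closest relative of *Ptpn1*, rose by 1.02 and 1.13 at 2 wpc and 0.95 and 0.74 at 4 wpc (edgeR adjusted p of at most 1.35e-05). *Ptpre*, a receptor-type phosphatase that acts on the leptin receptor complex, fell by 1.89 and 1.99 at 2 wpc and by 1.98 and 1.55 at 4 wpc on the log2 scale (edgeR adjusted p of at most 1.38e-10). *Ptpn11*, which encodes SHP2 and links the receptor to the ERK arm, fell by 0.66 and 0.58 at 2 wpc and by 0.57 in *Lepr*-cKO mice at 4 wpc, and *Ptprj* fell by 0.99 in *Lepr*-ctrl mice at 4 wpc. Macrophage markers summed to 1258 ± 348 CPM (SD, n = 4) in injured and 164 ± 32.3 CPM (SD, n = 5) in healthy *Lepr*-ctrl nerves at 4 wpc, with *C1qb* the most abundant in injured nerves (384 CPM), and their part in the *Ptpn6* values was not tested.

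*Sh2b1* (ENSMUSG00000030733, chromosome 7 from 126466994 to 126475424 on the minus strand), the adaptor that enhances JAK2, was lower in injured nerves in 3 of 4 comparisons. In *Lepr*-ctrl mice at 4 wpc, it fell from 94.7, 98.0, 98.2, 104 and 109 CPM to 62.6, 65.4, 68.7 and 74.5 CPM without overlap, a log2 fold change of -0.57 ± 0.12 (SE, adjusted p of 0.000114 by edgeR). In *Lepr*-cKO mice it was between 66.9 and 99.8 with a median of 85.4 CPM in healthy and at 49.1, 61.7, 63.8, 67.1 and 75.9 CPM in injured nerves at 2 wpc, and at 87.7, 99.6, 103, 103 and 103 CPM and 69.9, 76.1, 81.1 and 90.3 CPM at 4 wpc. These groups overlapped, with log2 fold changes of -0.40 ± 0.11 (SE, adjusted p of 0.00166 by edgeR) and -0.32 ± 0.12 (SE, adjusted p of 0.0229 by edgeR), and the latter call was lost without the injured nerve of animal KO-175 (edgeR adjusted p = 0.0742, with a range of 0.0110 to 0.0742 over 17 alternatives). Control mice at 2 wpc had 65.7, 69.7, 71.6, 79.3 and 90.2 CPM in healthy and 58.1, 60.5, 63.2, 78.7 and 83.5 CPM in injured nerves, with a log2 fold change of -0.13 ± 0.11 (SE, adjusted p of 0.317 by edgeR). The injured nerve was lower in 16 of 17 mice.

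*Pias3* (ENSMUSG00000028101, chromosome 3 from 96696384 to 96706070 on the plus strand), an inhibitor of STAT3 binding to DNA, was lower with injury in *Lepr*-ctrl mice at 4 wpc, from 51.5, 52.6, 56.4, 56.9 and 57.5 CPM to 39.9, 40.4, 45.5 and 45.7 CPM without overlap, a log2 fold change of -0.36 ± 0.09 (SE, adjusted p of 0.00126 by edgeR). Within groups, *Pias3* deviated against the adipocyte marker sum (Pearson r -0.554 over 39 libraries), which was 231 ± 87.4 CPM (SD, n = 5) in healthy and 409 ± 216 CPM (SD, n = 4) in injured nerves of these mice, and its part in the *Pias3* values was not tested. Healthy *Lepr*-cKO nerves at 4 wpc had 50.4, 52.6, 52.8, 54.1 and 64.4 CPM and injured nerves 44.8, 45.5, 50.2 and 59.7 CPM, with a log2 fold change of -0.13 ± 0.09 (SE, adjusted p of 0.232 by edgeR). Without the injured nerve of animal KO-169 this value was -0.23 and was called (edgeR adjusted p = 0.0449, with a range of 0.0449 to 0.562 over 17 alternatives), and without the healthy nerve of that animal it was -0.068. At 2 wpc, the injured nerves had 43.6, 45.7, 51.7, 55.1 and 55.9 CPM in *Lepr*-ctrl and 40.0, 44.1, 45.8, 47.5 and 55.1 CPM in *Lepr*-cKO mice, where healthy nerves had 48.7 ± 1.87 CPM (SD, n = 5) and 49.2 ± 3.62 CPM (SD, n = 6), and neither comparison was called. Its exons share 4 bases (0.102%) with *Nudt17* on the opposite strand. Of the 5 other SH2B and PIAS genes, 2 were higher and 2 lower in *Lepr*-ctrl mice at 2 wpc, and 1 was higher and 2, 1 and 2 lower in *Lepr*-cKO mice at 2 wpc, *Lepr*-ctrl mice at 4 wpc and *Lepr*-cKO mice at 4 wpc. Beside these counts, 29.6% to 35.9% of all tested genes were called higher and 25.8% to 31.2% lower. *Sh2b2*, the adaptor also called APS, rose by a log2 fold change of 2.68 and 2.73 at 2 wpc and 2.70 and 2.62 at 4 wpc (edgeR adjusted p of at most 1.42e-08), from a low level of 0.952 ± 0.315 CPM to 6.16 ± 0.991 CPM (SD, n = 5 each) in *Lepr*-ctrl mice at 2 wpc. *Pias1* fell by 0.52, 0.49, 0.23 and 0.26 in the same order, and *Sh2b3* by 0.56 and 0.55 at 2 wpc and by 0.58 in *Lepr*-cKO mice at 4 wpc. DESeq2 did not call the fall of *Pias1* in *Lepr*-ctrl mice at 4 wpc.

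The arms that leave the receptor beside JAK2 and STAT3 were counted from lists. Of 12 genes of the PI3K-AKT arm, 1 was higher and 6 lower in *Lepr*-ctrl and 0 higher and 7 lower in *Lepr*-cKO mice at 2 wpc, and 3 were higher and 6 lower in *Lepr*-ctrl and 1 higher and 6 lower in *Lepr*-cKO mice at 4 wpc. Of all tested genes, 30.2%, 29.2%, 31.2% and 25.8% were lower in these comparisons and 33.7%, 35.9%, 32.4% and 29.6% higher, which is also the background of the ERK arm. The median log2 fold change of the 12 genes was -0.27, -0.34, -0.23 and -0.24. *Irs1*, an insulin receptor substrate that couples the receptor to PI3K, fell from 35.3 ± 2.33 CPM to 3.39 ± 1.32 CPM (SD, n = 5 each) in *Lepr*-ctrl mice at 2 wpc, a log2 fold change of -3.37 ± 0.38 (SE, adjusted p of 1.93e-09 by edgeR), and by 2.88, 2.87 and 2.98 in the other comparisons. *Pik3r1*, the regulatory subunit of PI3K, fell by 1.85, 1.73, 1.62 and 1.38 on the log2 scale, and the catalytic subunit gene *Pik3cb* rose in 3 comparisons (0.47, 0.96 and 0.50). Of 8 genes of the ERK arm, 2 were higher and 4 or 3 lower at 2 wpc in *Lepr*-ctrl or *Lepr*-cKO mice, and 2 higher and 4 lower, or 1 higher and 3 lower, at 4 wpc. *Mapk3*, which encodes ERK1, fell in all 4 by 0.98 to 1.49 on the log2 scale, and the adaptor gene *Grb2* rose in all 4 by 0.28 to 0.95.

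STAT3 target genes were mostly higher in injured nerves although *Stat3* itself was not called. Of 14 such genes, 10 (*Lepr*-ctrl) and 11 (*Lepr*-cKO) were higher at 2 wpc and 11 and 10 at 4 wpc, and 1, 1, 2 and 1 were lower. Of all tested genes, 33.7%, 35.9%, 32.4% and 29.6% were called higher in the same comparisons (*Lepr*-ctrl and *Lepr*-cKO at 2 wpc, then at 4 wpc). The 14 genes had a median log2 fold change of 1.16, 1.44, 1.22 and 1.36, beside 0.08, 0.10, 0.02 and 0.06 for all tested genes. *Timp1*, an inhibitor of metalloproteinases, rose from 1.93 ± 0.374 CPM to 46.9 ± 7.90 CPM (SD, n = 5 each) in *Lepr*-ctrl mice at 2 wpc, a log2 fold change of 4.602 ± 0.30 (SE, adjusted p of 8.25e-15 by edgeR), and *Lrg1*, a secreted glycoprotein, by 6.05 ± 0.71 (SE, adjusted p of 4.61e-09 by edgeR). In the same list, *Serpina3n*, a serine protease inhibitor, fell in all 4 comparisons by 1.16 to 1.88 on the log2 scale. These genes also respond to other cytokines and transcription factors, so that the list does not measure leptin signalling alone. The macrophage marker sums given above for *Lepr*-ctrl mice were higher in the same injured nerves, and those of *Lepr*-cKO mice were 162 ± 50.9 CPM (SD, n = 6) in healthy and 647 ± 231 CPM (SD, n = 5) in injured nerves at 2 wpc and 119 ± 40.9 CPM (SD, n = 5) against 802 ± 184 CPM (SD, n = 4) at 4 wpc, and their part in these values was not tested.

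**Figure D5:**
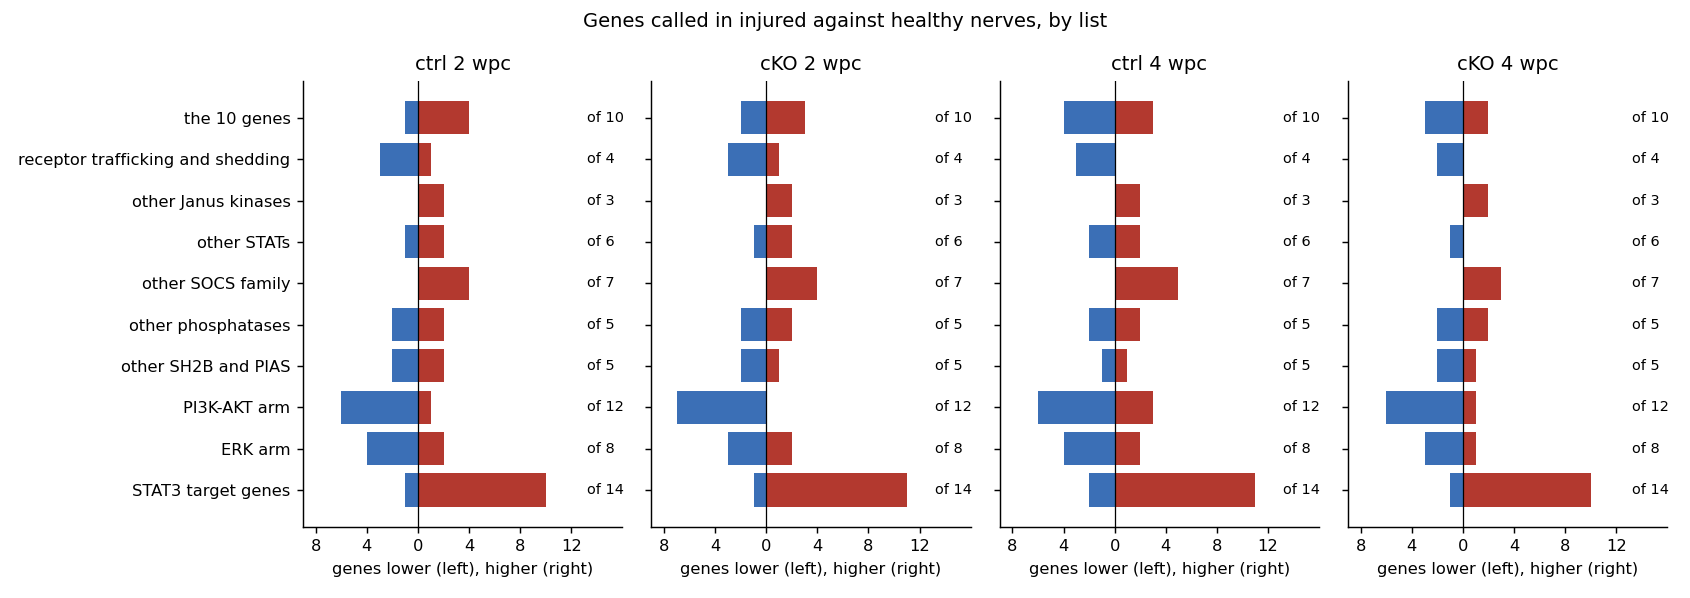
Number of genes called in injured against healthy nerves (edgeR adjusted p under 0.05) in each list, to the right when higher and to the left when lower, with the number tested at the right edge of each panel. STAT3 target genes lie mostly to the right (10 or 11 of 14) and the PI3K-AKT arm mostly to the left (6 or 7 of 12).

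The second question was whether these genes differed between *Lepr*-ctrl and *Lepr*-cKO mice. No difference was called for any of the 10 genes, in injured or in healthy nerves at either time, where 0.58% of all tested genes were called in injured nerves at 2 wpc, 1.31% at 4 wpc, and 0.0108% and 0.00542% in healthy nerves (edgeR). At an unadjusted p under 0.05, there were 0, 2 (*Leprot* and *Pias3*), 1 (*Lep*) and 0 of the 10 genes in these comparisons, where 1187, 3667, 222 and 346 of the 18442 tested genes were, and DESeq2 called 0 of the 10 in each. The CPM values of the genotypes overlapped for all of them, apart from *Lep* in healthy nerves at 4 wpc, where 0.678% of all tested genes did not overlap. There the lowest *Lepr*-cKO and the highest *Lepr*-ctrl nerve each held 1 count of *Lep* (0.0432 and 0.0416 CPM), so that only their library sizes kept them apart. In the other comparisons of genotypes, 0.239% (healthy, 2 wpc), 0.233% (injured, 2 wpc) and 5.68% (injured, 4 wpc) of all tested genes did not overlap. In injured nerves, the difference of *Socs3* was 0.37 (95% interval -0.03 to 0.77, adjusted p of 0.852 by edgeR) at 2 wpc and 0.25 (95% interval -0.21 to 0.70, adjusted p of 0.579 by edgeR) at 4 wpc on the log2 scale, positive when higher in *Lepr*-cKO mice. For *Ptpn1* it was -0.22 (95% interval -0.48 to 0.05, adjusted p of 0.892 by edgeR) and -0.29 (95% interval -0.59 to 0.01, adjusted p of 0.289 by edgeR). For *Stat3* it was 0.01 (95% interval -0.18 to 0.20, adjusted p of 0.999 by edgeR) and 0.03 (95% interval -0.18 to 0.25, adjusted p of 0.892 by edgeR), so that differences above 0.25 lay outside both intervals. For *Lepr* itself it was 0.39 (95% interval -0.18 to 0.96, adjusted p of 0.939 by edgeR) and -0.54 (95% interval -1.19 to 0.10, adjusted p of 0.362 by edgeR). The latter was -0.22 (edgeR adjusted p = 0.767) without the injured nerve of animal WT-170. For *Leprot* at 4 wpc it was 0.47 (95% interval 0.07 to 0.87, adjusted p of 0.194 by edgeR), which was called without the injured nerve of animal KO-177 (0.63, edgeR adjusted p = 0.0331) and was 0.13 (edgeR adjusted p = 0.786) without that of animal KO-169. When single libraries were left out, the value of *Lepr* at 2 wpc ranged from 0.094 to 0.59. That of *Socs3* then ranged from 0.18 to 0.54 at 2 wpc and from 0.061 to 0.37 at 4 wpc. For *Ptpn1* the ranges were -0.34 to -0.10 and -0.46 to -0.18, and none of these values was called. In injured nerves at 4 wpc, the Schwann cell sum was 44290 ± 16901 CPM in *Lepr*-cKO and 22579 ± 3196 CPM in *Lepr*-ctrl mice (SD, n = 4 each). The median mitochondrial share was 11.2% in *Lepr*-cKO and 21.1% in *Lepr*-ctrl mice, and the part of both in the genotype differences at 4 wpc was not tested.

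The response to injury was also compared between genotypes. No member differed at 2 or 4 wpc, and neither did any of the 18442 tested genes (edgeR, 0% called). At an unadjusted p under 0.05 there were 0 and 0 of the 10 genes, where 796 and 2013 of all tested genes were, and DESeq2 called 0 of the 10 at either time. At 2 wpc, the response of *Lepr*-cKO minus that of *Lepr*-ctrl mice was 0.20 (95% interval -0.36 to 0.76, adjusted p of 0.999 by edgeR) for *Socs3*, -0.28 (95% interval -0.65 to 0.10, adjusted p of 0.999 by edgeR) for *Ptpn1* and 0.049 (95% interval -0.35 to 0.45, adjusted p of 0.999 by edgeR) for *Leprotl1*. At 4 wpc it was -0.87 (95% interval -1.75 to 0.01, adjusted p of 0.479 by edgeR) for *Lepr*, where 4 of 4 *Lepr*-cKO and 4 of 4 *Lepr*-ctrl mice with both nerves had the higher level in the injured nerve. When single libraries were left out, the values at 2 wpc ranged from 0.0086 to 0.38 for *Socs3* and from -0.41 to -0.16 for *Ptpn1*. They ranged from -0.072 to 0.15 for *Leprotl1*, and that of *Lepr* at 4 wpc from -1.10 to -0.53, with no call. Across all pathway lists, 0 of the 63 genes were called between genotypes in injured nerves at 2 or 4 wpc by edgeR, with 6 and 16 at an unadjusted p under 0.05 (1187 and 3667 of the 18442 tested genes), and DESeq2 called 0 at 2 wpc and 2 at 4 wpc, *Grb2* and *Cebpd*, which are named here after their values were seen. The share of all tested genes that DESeq2 called between genotypes was not counted, so these 2 calls stand without a background.

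The last question was whether the levels moved between 2 and 4 wpc. In injured nerves, *Lepr* was lower at 4 wpc than at 2 wpc in *Lepr*-cKO mice, a log2 fold change of -1.19 ± 0.32 (SE, adjusted p of 0.00923 by edgeR), where 14.8% of all tested genes were called, 6.79% lower, and it was the only gene of the 10 called there. The call was lost when only the compared groups were fitted (-1.23, edgeR adjusted p = 0.109) and was made under the other 15 of 16 alternatives (edgeR or DESeq2 adjusted p of up to 0.0483). The groups still overlapped, since the injured nerve of animal SLRKO2wpc125 at 2 wpc (31.0 CPM) lay among the values at 4 wpc. Marker sums moved over the same interval: in injured *Lepr*-cKO nerves the Schwann cell sum was 27690 ± 9966 CPM (SD, n = 5) at 2 wpc and 44290 ± 16901 CPM (SD, n = 4) at 4 wpc, and the endothelial cell and pericyte sum was 1031 ± 494 CPM and 655 ± 148 CPM. The ranges of both sums overlapped between the times, and their part in the *Lepr* values was not tested. The change of *Lepr* in *Lepr*-ctrl mice was -0.26 ± 0.31 (SE, adjusted p of 0.6 by edgeR). When single libraries were left out it ranged from -0.61 to -0.026 and was never called. The difference of *Lepr* between the responses to injury at 4 and 2 wpc was -0.89 ± 0.42 (SE, adjusted p of 0.32 by edgeR) in *Lepr*-cKO mice and was not called. In injured *Lepr*-ctrl nerves, 21.2% of all tested genes were called between the times, 11% lower, and of the 10 genes only *Leprot*, lower at 4 wpc with a log2 fold change of -0.53 ± 0.20 (SE, adjusted p of 0.049 by edgeR). That call was made in 6 of 16 alternatives only (adjusted p of 0.00448 to 0.185 over edgeR and DESeq2). Measures that *Leprot* deviated with differed between these times as well: in injured *Lepr*-ctrl nerves the median mitochondrial share was 11.2% at 2 wpc and 21.1% at 4 wpc, and the perineurial cell sum was 698 ± 191 CPM (SD, n = 5) and 525 ± 38.6 CPM (SD, n = 4). Their part in the *Leprot* values was not tested. The difference between the responses at 4 and 2 wpc was called for *Pias3* in *Lepr*-ctrl mice, -0.41 ± 0.13 (SE, adjusted p of 0.0391 by edgeR), with 9.1% of all tested genes called, 5.05% lower, and for 0 of the 10 genes in *Lepr*-cKO mice, where 2.09% were called and 1 of the 10 genes, *Lepr*, had an unadjusted p under 0.05 by edgeR, as did 2698 of all tested genes (DESeq2 called 0 of the 10). The value of *Pias3* lost its call without the healthy nerve of animal WT-173 or the injured nerves of animals SLRKO2wpc123, SLRKO2wpc147, WT-170 or WT-171, taken out singly, and without the expression filter. *Jak2*, *Socs3* and *Stat3* were not called between the times in injured nerves of either genotype, with values of -0.42 ± 0.16 (SE, adjusted p of 0.0537 by edgeR) and -0.34 ± 0.16 (SE, adjusted p of 0.149 by edgeR) for *Jak2*. Under the alternatives, *Jak2* was called in 5 of 16 in *Lepr*-ctrl mice (adjusted p of 0.0117 to 0.176 over edgeR and DESeq2) and in 1 of 16 in *Lepr*-cKO mice (0.0406 to 0.364), *Socs3* in 0 and 2 of 16 and *Stat3* in none.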

How the data were processed

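Per the labels and methods, the authors made libraries with a TruSeq RNA v2 kit, which does not mark strand, sequenced them as single reads, and used STAR 2.5 for alignment to GRCm38 and featureCounts 1.5.0-p1 for counting. Handling of multimapped reads is not given in the sources used here. The deposited values are raw counts per Ensembl gene in 39 samples, with 10905806 to 45016322 counts each.

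Groups were taken from the genotype and treatment labels. Counts were fitted with edgeR 4.0.16 in R 4.3.3 (quasi-likelihood F test, TMM normalization, filterByExpr set to at least 10 counts and 15 in total), with all 39 libraries and 1 coefficient per group, and 14 contrasts were adjusted by Benjamini-Hochberg over 18442 genes. A gene was called at an adjusted p under 0.05. Fold changes compare fitted means, levels are TMM-scaled CPM, and log2 CPM used a prior count of 2. The fit was tested on simulated data: in injured against healthy *Lepr*-ctrl nerves at 2 wpc, 88% of 200 genes changed 4-fold and 56.5% of 200 changed 2-fold were recovered. Only these 200 genes were changed in each simulation, whereas 64% of all tested genes were called in that comparison of the real data. The recovered shares therefore need not hold for the reported fit. Alternatives were DESeq2 1.42.0, other scalings and filters, a term for sex, the compared groups only, the animal as a block and leaving out each library. The members and lists were chosen with earlier results of these data known. Named genes were the 10 members, from each list and injury comparison the 2 called genes in either direction that changed most (mean log2 CPM over 0), the 5 genes most like *Lepr* or *Socs3*, *Dhh*, and marker list totals with each list's most abundant gene. *Sox10*, *Adipoq*, *Gfap* and *Cebpd* are outside this rule and were chosen after their values were seen. Some genes that this rule names are not reported here.

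Both nerves of the 17 mice with 2 libraries are paired by the animal number in the labels. Their deviations from the group means over 5000 genes correlated with a median r of 0.124 (-0.0849 to 0.277), above 0.1 in 10 pairs. Libraries of a group came from different mice, so p-values rest on the spread between mice within groups, estimated over all 8 groups together. The reported fit took both nerves of a mouse as independent, and the animal as a block was an alternative.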

Additional observations from a re-analysis of the deposited data

Results flagged for a closer look

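The healthy nerve of *Lepr*-cKO animal KO-177 at 4 wpc had the lowest *Sh2b1* level of its group, 87.7 CPM, far below the other 4 nerves, which had 99.6 to 103.2 CPM. The same library had 4.25% of its counts from mitochondrially encoded genes, above the other 4, and the lowest Schwann cell marker sum of its group, 66579 CPM, and the part of these in the *Sh2b1* value was not tested. Without it, the log2 fold change of *Sh2b1* with injury in *Lepr*-cKO mice at 4 wpc was -0.38 (edgeR adjusted p = 0.0110). It was the 1 value of 79 gene and group combinations to stand apart in this way on the log2 scale, where chance flags about 1 in 20 groups. On the CPM scale 4 values stood apart, this one among them. The response of *Pias3* to injury differed between the times in *Lepr*-ctrl mice, by -0.41 on the log2 scale (edgeR adjusted p = 0.0391), being lower at 4 wpc than at 2 wpc. The injured nerve had the lower *Pias3* level in 4 of 4 mice at 4 wpc and in 2 of 4 at 2 wpc, and the times are different cohorts.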

How the results depend on the processing

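The numbers of the 10 genes called between injured and healthy nerves stayed within 1.5 times the reported ones under each alternative run. Of 25 called results for single genes, 5 lost the call under at least 1 alternative, and none changed direction. With the animal as a replicate block, *Socs3* in *Lepr*-cKO mice at 4 wpc was called (0.51, edgeR adjusted p = 0.0447), and no other call changed. Between the times in injured *Lepr*-ctrl nerves, where 1 gene was called, 0 were called with DESeq2 size factors, without the expression filter, with a term for sex or with the compared groups only, 3 with mitochondrially encoded genes left out or with at least 10 counts in every library, and 0 to 2 when single libraries were left out. In injured *Lepr*-cKO nerves 1 gene was called between the times, 0 with the compared groups only, and 1 to 3 when single libraries were left out. The response over time in *Lepr*-ctrl mice had 1 call, 0 without the filter and 0 to 2 when single libraries were left out, and the genotypes in injured nerves at 4 wpc had 0 calls, and 0 to 1. *Lepr* between the times in *Lepr*-cKO mice was not called with the compared groups only (-1.23, edgeR adjusted p = 0.109).

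Of the values that changed sign, those listed here moved by more than 1 standard error of the reported fit, smaller moves across 0 are left out, and none was called. Leaving out single libraries gave ranges of -0.17 to 0.33 for *Leprot* after injury in *Lepr*-cKO mice at 4 wpc and of -0.28 to 0.22 for its response over time, of -0.043 to 0.37 for *Leprotl1* between genotypes in injured nerves at 4 wpc, of -0.025 to 0.38 for its interaction and of -0.11 to 0.30 between the times in *Lepr*-cKO mice, of -0.019 to 0.13 for *Pias3* between the times and of -1.21 to 2.51 for the response of *Lep* over time. The lowest value of each came without the injured nerve of KO-169, except for *Lep*, where it came without the healthy nerve of SLRKO2wpc138. The cause of these changes was not tested. *Lep* had 0 counts in 16 libraries, and intervals for it cover counting error only.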
